A study of Rattus norvegicus with 6 samples.

Results

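Kidney transcripts of 10 genes were followed in rats as a measure of the urothelium, the lining of the renal pelvis. They were the uroplakins Upk1a, Upk1b, Upk2, Upk3a and Upk3b, the keratins Krt5, Krt7, Krt19 and Krt20, and the small proline-rich gene Sprr1a. Not all are confined to that tissue, since Krt7 and Krt19 are also made in other duct epithelia and Sprr1a in squamous cells. The 10 genes were taken as every probe set whose gene symbol is one of these names. This gave 9 probe sets for 9 genes, of 14217 genes with a probe set in the table. Upk3b had no probe set and was not analysed here. Of the 9 probe sets, 7 had a mean over all arrays at or above the 40th percentile of all probe sets (a signal of 25.6), and those of Upk2 and Krt20 lay below it. The genes had been picked with the difference between the strains already known, since several of them were lower in congenic kidneys, so their values in that comparison are given as a description, without a test.

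The congenic rats carry a segment of chromosome 9 from the R strain on the Dahl salt-sensitive (S) background, and their controls were S rats, each cage holding 1 of either strain. The S rat is an inbred model that becomes hypertensive on a salt-rich diet. All animals were males of 53 days, weaned at 30 days and given chow with 2% salt, so that no group on a low-salt diet was part of the comparison. Kidney RNA of 2 rats was pooled for each array, with 3 arrays and 6 rats per strain. None of the 10 genes lies on chromosome 9: in the rat assembly GRCr8 they are on chromosomes 1 (Upk1a), 2 (Sprr1a), 7 (Upk3a, Krt5, Krt7), 8 (Upk2), 10 (Krt19, Krt20), 11 (Upk1b) and 12 (Upk3b).

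The urothelium is a layered epithelium with basal cells next to the connective tissue, intermediate cells above them and large umbrella cells that face the urine. Uroplakins are membrane proteins that assemble into rigid plaques on the umbrella cells and keep water and solutes out of the tissue. The tetraspanin Upk1a pairs with Upk2, and the tetraspanin Upk1b pairs with Upk3a or Upk3b, before the pairs leave the endoplasmic reticulum. In a whole kidney the tissue is a thin sheet, and its share of the RNA varies with how much of the pelvis is taken. In such bulk samples, fewer cells of a type and less RNA per cell cannot be told apart.

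The arrays carried the RNA of kidney, with summed signals of 6 proximal tubule genes of 16783 to 16985 on congenic arrays and 16719 to 18341 on S arrays. A pair of the congenic arrays also had high signals of genes typical of other organs. On congenic array 1 the 8 liver genes listed summed to 10400.5, and the other congenic arrays gave 219 and 215, against 206 to 266 on S arrays. On congenic array 3 the 6 measured adrenal genes summed to 5541, and the other congenic arrays gave 152 and 158, against 137 to 154 on S arrays. Congenic array 2 therefore is the 1 congenic array without either signal, and values for it alone are given below. The 3' over 5' ratio of beta-actin, a measure of RNA integrity that increases as RNA breaks down, was 6.15, 6.64 and 7.17 on congenic arrays, against 9.42, 8.13 and 6.54 on S arrays. For GAPDH the same ratio was 1.63, 1.62 and 1.68 on congenic arrays, against 1.77, 1.66 and 1.5 on S arrays, so its ranges overlapped. Values are MAS5 signals on a linear scale, and fold changes are differences of mean log2(signal + 16), congenic minus S, which understate the change of dim probe sets.

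Of the 9 measured genes, 6 had a lower mean in congenic kidneys, and their median log2 fold change over all 9 was -0.21. Over all 14217 genes, 52.2% had a negative fold change and the median was -0.0057. The genes that were lower were Sprr1a, Upk3a, Upk1a, Upk1b, Krt5 and Krt19, whereas Krt7, Krt20 and Upk2 were at or slightly above the S mean, Krt7 turning to -0.0018 on the log2 scale with quantile normalization and -0.0019 with median centring. The groups did not overlap for 3 genes, Sprr1a, Upk1b and Krt19, all lower in congenic kidneys, where 6.6% of all genes had this pattern. Because the genes were chosen on this contrast, nothing is read from that count. The per-array signals of all 9 genes are shown together in the panels of signal by strain.

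**Figure D1:**
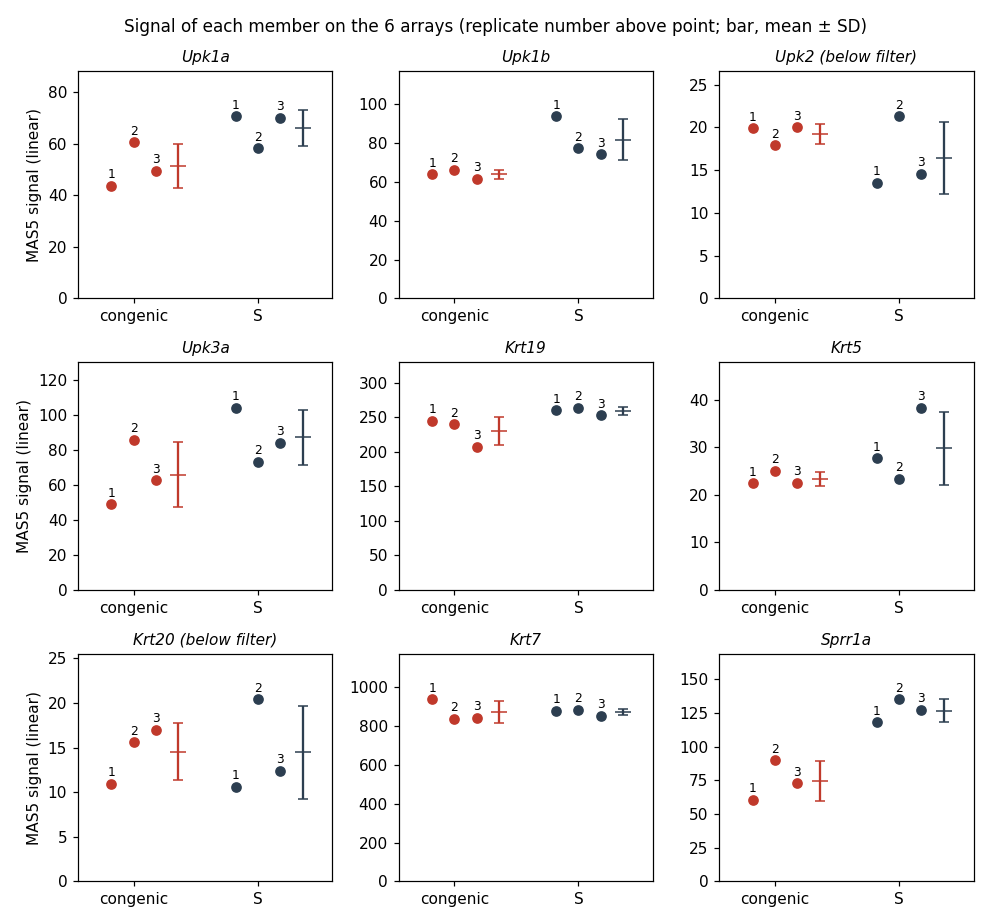
MAS5 signal (linear scale, each axis from 0) of the 9 measured genes on the congenic arrays (red) and the S arrays (dark). Points carry the replicate number, and the bars beside them give mean ± SD of 3 arrays; the congenic points lie below all S points for Sprr1a, Upk1b and Krt19, and the groups overlap for the other 6 genes.

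Among the tetraspanin uroplakins, Upk1b had signals of 63.9, 66.2 and 61.4 on the congenic arrays, against 93.7, 77.2 and 74.2 on the S arrays. All congenic values lay below all S values, and the congenic arrays were close together while S array 1 stood highest. The means were 63.8 ± 2.37 in congenic and 81.7 ± 10.5 in S kidneys (SD, n = 3 each), and the log2 fold change was -0.29 (SE 0.11). Upk1a had 43.7, 60.6 and 49.5 on the congenic arrays, against 70.7, 58.2 and 70.0 on the S arrays. Here the groups overlapped, since congenic array 2 was above S array 2. The means of Upk1a were 51.3 ± 8.58 in congenic and 66.3 ± 7.05 in S kidneys (SD, n = 3 each), with a log2 fold change of -0.29 (SE 0.13). Against congenic array 2 alone, the log2 fold change was -0.24 for Upk1b and -0.099 for Upk1a.

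Among their partners, Upk3a, which unlike Upk2 has a long cytoplasmic tail, had 48.8, 85.6 and 62.6 on the congenic arrays, against 104, 73.2 and 84.0 on the S arrays. Congenic array 2 was second only to S array 1 among all 6 arrays, so the groups overlapped. The means were 65.7 ± 18.6 in congenic and 87.0 ± 15.5 in S kidneys (SD, n = 3 each), and the log2 fold change was -0.35 (SE 0.17). With congenic array 2 alone the log2 fold change of Upk3a was -0.009, and without that array it was -0.52. Upk2, the partner of Upk1a, had 19.9, 17.9 and 20.0 on the congenic arrays, against 13.5, 21.3 and 14.6 on the S arrays. Its signals were dim, its highest and lowest arrays were both S arrays, and its log2 fold change was 0.13 (SE 0.14). The fold changes of the 4 measured uroplakins thus had no common sign, although the congenic mean was the lower for the 3 above the filter.

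The keratins span the layers of the tissue. Krt5, the type II keratin of basal cells, had 22.4, 25.1 and 22.5 on the congenic arrays, against 27.7, 23.4 and 38.3 on the S arrays. Its mean over all arrays, 26.6, passed the filter only through the S arrays (mean 29.8), since the congenic mean of 23.3 lay below it. S array 3 alone was well above the others, and the log2 fold change was -0.21 (SE 0.16) with it and -0.078 without it. Krt20, a keratin of umbrella cells, had 10.9, 15.6 and 17.0 on the congenic arrays, against 10.6, 20.4 and 12.4 on the S arrays. The ranges overlapped, with S array 2 above every congenic array, and its log2 fold change was 0.012 (SE 0.16). Both probe sets below the filter, those of Upk2 and Krt20, thus belong to umbrella cell genes, and the table gives no detection calls to say whether they were present.

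Krt19, a type I keratin of all urothelial layers that is also made in other duct epithelia, had 245, 240.0 and 207 on the congenic arrays, against 260.5, 264 and 253 on the S arrays. The congenic values all lay below the S values, although congenic array 1 came close to S array 3. The means were 231 ± 20.6 in congenic and 259 ± 5.82 in S kidneys (SD, n = 3 each), with a log2 fold change of -0.16 (SE 0.082), or -0.089 without congenic array 3. Krt7, the type II keratin found in urothelium and other duct epithelia, had 939, 839.8 and 844 on the congenic arrays, against 879.8, 885 and 854 on the S arrays. Its means were 874 ± 55.9 in congenic and 873 ± 17.0 in S kidneys (SD, n = 3 each), and the log2 fold change was 0.00047 (SE 0.062).

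Sprr1a encodes a precursor of the cornified envelope, the cross-linked protein shell of squamous cells, and is also known to be induced in injured nerve and heart cells. It had 60.5, 89.7 and 72.6 on the congenic arrays, against 118, 135 and 127 on the S arrays. Every congenic value lay below every S value, with a gap between congenic array 2 and S array 1. The means were 74.3 ± 14.7 in congenic and 126 ± 8.54 in S kidneys (SD, n = 3 each), a signal lower by 41.2%, with -0.67 on the log2 scale (SE 0.12). With congenic array 2 alone the log2 fold change was -0.43, and with each array left out in turn it ran from -0.79 to -0.56. Sprr1a is a member of a family of similar genes, and cross-hybridisation of its probes with Sprr1b was not tested.

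**Figure D2:**
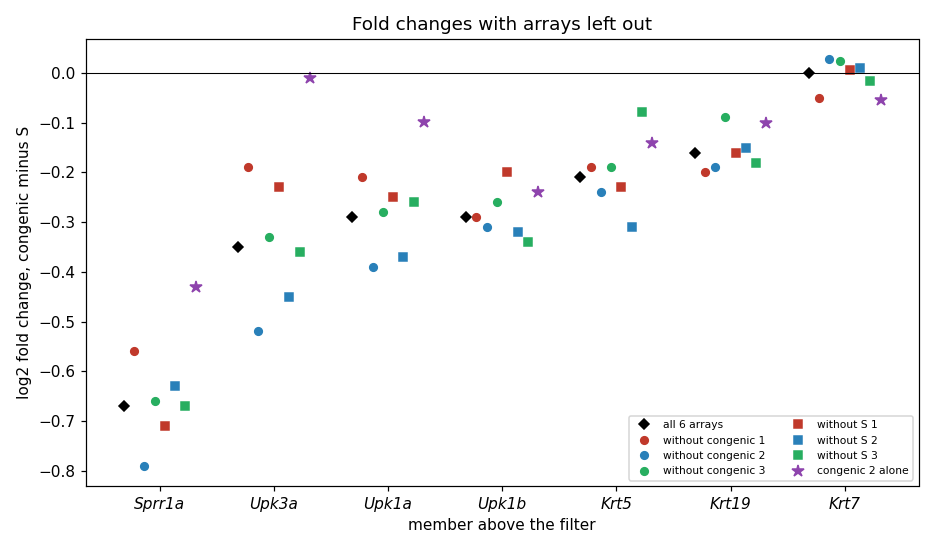
Log2 fold change (congenic minus S) of the 7 genes above the filter (Krt5 only through its S arrays), with all 6 arrays (diamonds), with each array left out (circles for congenic, squares for S), and with congenic array 2 as the only congenic array (stars). Krt7 stays near 0, the other 6 genes are below 0 in each setting shown, and Upk3a moves from -0.52 without congenic array 2 to -0.009 with that array alone.

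The spread within each strain was not used to choose the genes. Within the congenic strain, array 2 was the highest and array 1 the lowest for Upk1a (deviations from the strain's mean log2 level of 0.20 and -0.16), Upk3a (0.34 and -0.31) and Sprr1a (0.24 and -0.23). Congenic array 2 was also the highest congenic array for Upk1b (0.042) and Krt5 (0.063), but not for Krt19, Krt7, Krt20 or Upk2. Within the S strain, array 2 was the lowest for Upk1a (-0.15), Upk3a (-0.20) and Krt5 (-0.20), whereas it was the highest for Sprr1a (0.084), Upk2 (0.21), Krt20 (0.27), Krt19 (0.026) and Krt7 (0.020). Sprr1a therefore had the order of Upk1a and Upk3a among congenic arrays and not among S arrays. Upk2 and Krt20 shared their highest array, S array 2, and their lowest, S array 1, where Upk1a, Upk1b and Upk3a were each at their highest of all 6 arrays. S array 1 also had the highest beta-actin 3' over 5' ratio, at 9.42, and without it the log2 fold changes were -0.20 for Upk1b, -0.25 for Upk1a and -0.23 for Upk3a. The part of RNA integrity in these values was not tested.

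**Figure D3:**
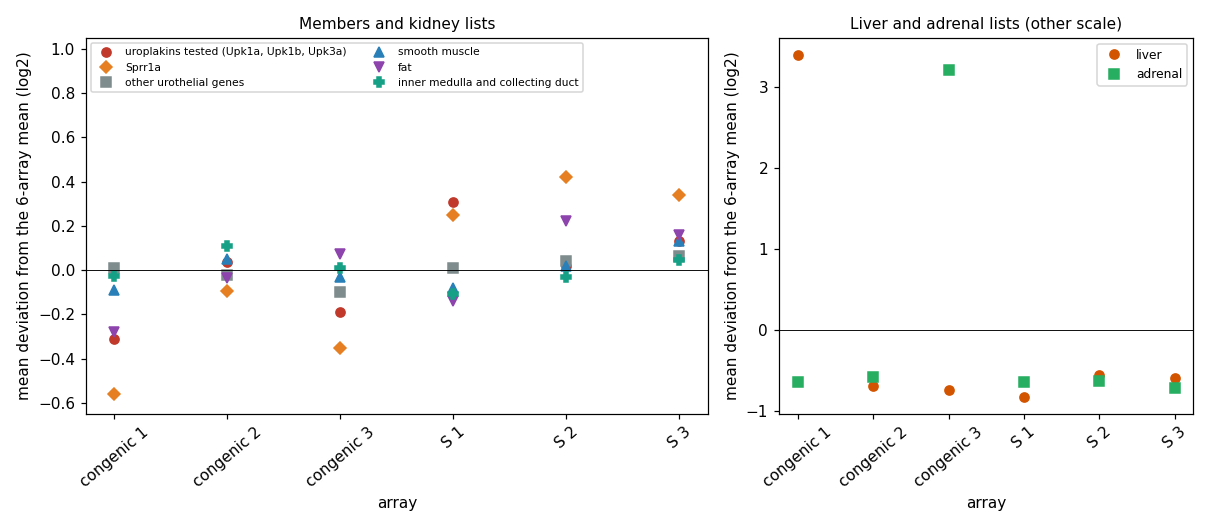
Mean deviation of each gene or list from its own 6-array mean on the log2(signal + 16) scale, for each array; points of the liver and adrenal lists are in the right panel on a wider scale. The uroplakins (mean of Upk1a, Upk1b and Upk3a) lie at -0.31, 0.037 and -0.19 on congenic arrays 1, 2 and 3, against 0.31, 0.019 and 0.13 on S arrays 1, 2 and 3.

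As the mean of Upk1a, Upk1b and Upk3a, the uroplakin level was lowest on the array with liver transcripts, at -0.31 from the 6-array mean, and next lowest on the array with adrenal transcripts, at -0.19. The congenic array with neither was at 0.037, inside the S range of 0.019 to 0.31. This holds for the mean of these 3 genes and not for each of them. Upk1b was lowest on congenic array 3 (61.4), and its signal on congenic array 2 (66.2) lay below all S arrays (74.2 to 93.7). As the mean of all 9 measured genes, congenic array 2 was at -0.0038, outside the S range of 0.097 to 0.11. Sprr1a was at -0.56, -0.094 and -0.35 on congenic arrays 1, 2 and 3, against 0.25, 0.42 and 0.34 on the S arrays, so that its congenic array 2 stayed outside the S range. Alb, the main plasma protein of liver, had signals of 6683, 21.2 and 26.9 on the congenic arrays, against 19.3, 45.5 and 56.7 on the S arrays. Star, which starts steroid synthesis in the adrenal gland, had 13.0, 11.9 and 1085 on the congenic arrays, against 9.13, 15.6 and 10.9 on the S arrays. Whether the liver and adrenal signals and the low uroplakin signals of arrays 1 and 3 are linked was not tested.

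Other genes of the urothelium were read from a list of 46 symbols without the 10 genes above, of which 38 had a probe set and 26 passed the filter. Not all of them are confined to the urothelium: Krt8, which most kidney epithelia make, had means of 1105 in congenic and 1091 in S kidneys. The part of other kidney epithelia in the values of this list was not tested. Of the 26, 14 were lower and 12 higher in congenic kidneys, and the median log2 fold change was -0.054. All 10658 genes that passed the filter had 52.6% lower and a median of -0.0068. By limma with Benjamini-Hochberg adjustment, 0 of the 26 passed over all 18625 probe sets tested, of which 0 passed as well (0%). At an unadjusted p under 0.05, 2 of the 26 were lower and 0 higher, while 3.53% of all probe sets tested were lower and 3.09% higher at that level. The groups did not overlap for 3 of the 26, all lower, while 6.79% of all probe sets tested were lower and 5.74% higher without overlap.

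Aldh1a3, an enzyme that makes retinoic acid, had 227, 165 and 210.1 on the congenic arrays, against 301, 248 and 281 on the S arrays. The groups did not overlap, and the difference was -0.44 on the log2 scale (SE 0.12, limma adjusted p = 0.71). Krt15, a keratin of basal cells, had 52.3, 55.4 and 65.4 on the congenic arrays, against 73.7, 75.9 and 78.1 on the S arrays. Krt15 differed by -0.32 on the log2 scale (SE 0.11, limma adjusted p = 0.735). Elf3, an epithelial transcription factor, had the opposite sign, at 0.26 on the log2 scale (SE 0.12, limma adjusted p = 0.776). The differentiation regulators Gata3 and Pparg were at -0.11 and -0.33 on the log2 scale, and the Upk3b-like gene Upk3bl1 was at 0.089. Pparg had 37.2, 40.7 and 41.1 on the congenic arrays, against 43.0, 47.6 and 74.2 on the S arrays. Its groups did not overlap, but S array 3 stood well above the other arrays. Krt8 and Krt18, the keratin pair of simple epithelia, had 0.0098 and -0.098. None of these differences passed the adjusted threshold.

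**Figure D4:**
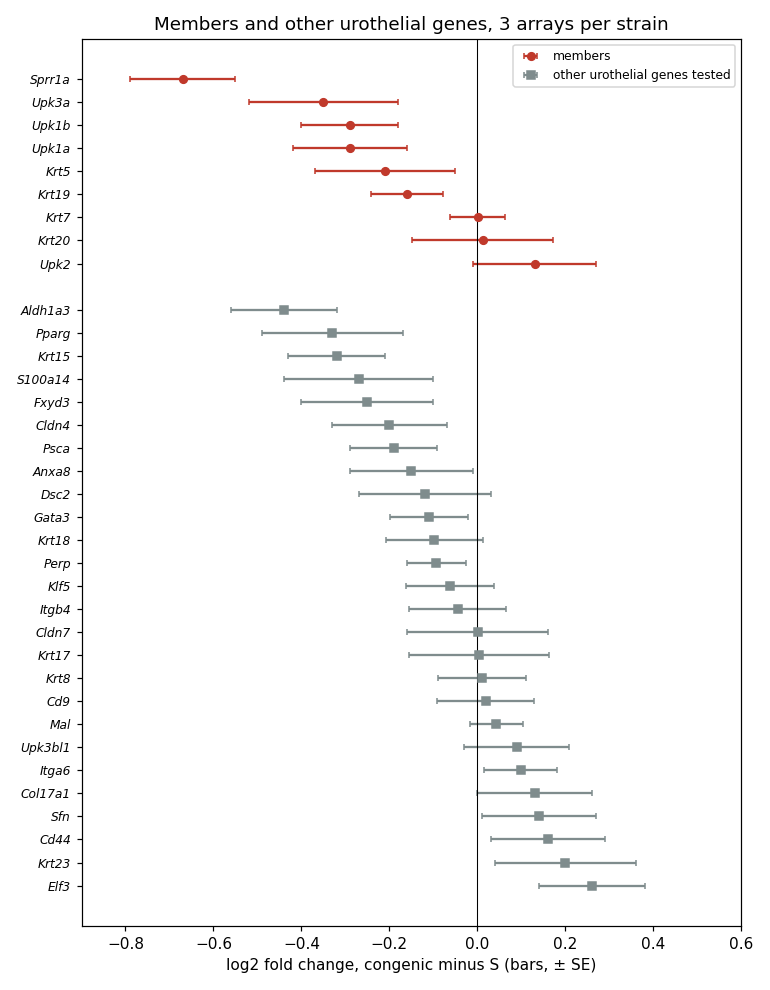
Log2 fold change (congenic minus S) with its standard error for the 9 measured genes (red circles) and for the 26 other urothelial genes tested (grey squares), 3 arrays per strain. Sprr1a is the lowest at -0.67; the other urothelial genes run from -0.44 (Aldh1a3) to 0.26 (Elf3), with 14 below 0.

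The cornified envelope genes other than Sprr1a gave few measurable signals. Of 30 symbols 21 had a probe set, and 15 of those lay below the filter. The relatives of Sprr1a were among the dim ones: Sprr1b lay at 6.70 to 17.8 on congenic and 7.04 to 17.3 on S arrays, Sprr2d at 1.23 to 2.53 on congenic and 0.626 to 1.14 on S arrays, and Sprr3 at 1.40 to 2.95 on congenic and 0.918 to 2.08 on S arrays. Of the 6 genes tested 3 were lower and 3 higher, their median log2 fold change being -0.028, and 0 passed limma's adjusted threshold (0 at an unadjusted p under 0.05). Of the envelope scaffold proteins, envoplakin (Evpl) was at -0.16 on the log2 scale (SE 0.13) and periplakin (Ppl) at -0.15 (SE 0.086). Cstb, a protease inhibitor of many tissues, had 0.11 (SE 0.069).

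Other tissues of the kidney and around it were measured beside the urothelium. Of the smooth muscle list, which includes the muscle of the pelvic wall and of blood vessels, 12 of 12 genes had a probe set, and their signals summed to 1875 to 2319 on congenic and 1995 to 2459 on S arrays. Of its 9 tested genes 8 were lower, and the median log2 fold change was -0.061. Over all 10658 genes tested, 52.6% were lower and the median was -0.0068, the values to set beside this list and those that follow. Myh11, smooth muscle myosin, had -0.28 (SE 0.12) and Des, desmin, a gene of chromosome 9, -0.23 (SE 0.097), while Acta2, smooth muscle actin, had 0.22 (SE 0.14), or 0.093 without congenic array 2. Fat markers, 10 of 10 measured, summed to 7699 to 8550.4 on congenic and 7820.4 to 8119 on S arrays, most of it from Pck1, which the proximal tubule also makes. Without Pck1 the sums were 1408, 2006 and 2019 on congenic arrays, against 1705, 2329 and 2291 on S arrays. Of the 9 tested fat genes, Pck1 among them, 8 were lower, with a median of -0.18, and the 1 higher was Pck1 (0.096). Of the collecting duct and inner medulla, 12 of 18 tested genes were higher and 6 lower, with a median of 0.064, and the summed signal of the 18 was 17501 to 18727 on congenic and 15567 to 17359 on S arrays. The water channels Aqp2 and Aqp3 were at log2 differences of 0.23 (SE 0.070) and 0.43 (SE 0.11), while the transcription factor Elf5 was at -0.40 (SE 0.14) and the prostaglandin synthase Ptgs1 at -0.23 (SE 0.091). These 4 were the genes of the 18 without overlap of the groups, 2 higher and 2 lower. In the smooth muscle list Des was the 1 gene without overlap, and it was lower. Over all probe sets tested, 6.79% were lower and 5.74% higher without overlap. The mesothelium covers the organ's surface and shares Upk3b with the urothelium. Of its list, 6 of 8 genes were measured, with a summed signal of 1432 to 1787 on congenic and 1508 to 1632 on S arrays. Without Krt8, which most kidney epithelia make, the sum was 397 to 499 on congenic and 453 to 489 on S arrays. That sum still holds Krt18, the keratin partner of Krt8. The median over 5 tested mesothelial genes was 0.0048. In each of these 4 lists 0 genes passed limma's adjusted threshold. At an unadjusted p under 0.05 there remained 2 lower smooth muscle genes, 4 higher and 2 lower collecting duct genes, and 0 genes of the fat and mesothelial lists, where 3.53% of all probe sets tested were lower and 3.09% higher at that level. In all 4 lists 0 measured genes had a signal of exactly 0. The part of these tissues in the urothelial values was not tested.

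The genes most like the 3 uroplakins above the filter were sought over the 6 arrays, by the root mean square (RMS) difference between a gene's log2 profile and the uroplakins' mean profile, both centred. The RMS size of the uroplakin profile itself was 0.20. The 5 nearest were Rsu1 (0.061), Ccdc88c (0.063), Nradd (0.065), Txk (0.068) and Fam167a (0.068), and Rsu1 had 131, 160.2 and 154 on the congenic arrays, against 201, 165 and 173 on the S arrays. None of the 5 belongs to the urothelial list. The 26 other urothelial genes tested were spread over the whole order of 10658 genes, from Fxyd3 at rank 155 to Elf3 at rank 10129. The genes nearest to Sprr1a, whose profile had an RMS size of 0.36, were LOC102548459 (0.11), Emc3 (0.13), Zfp619 (0.14), Pln (0.15) and Hpdl (0.16). These profiles hold the difference between the strains on which the uroplakins and Sprr1a were chosen, and with 6 arrays and 10658 genes many profiles lie close to any other, so the order is a description only.

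Promoter sequences were read for Sprr1a and the 3 uroplakins above the filter from the RefSeq promoter table of GRCr8, which held 7 of the 10 genes. Each window runs from 250 bases before to 50 bases after the annotated start, on the gene's strand, in the reference strain and not in S or congenic rats. Capitals mark matches, on either strand, to any of 6 motifs. The AP-1 motif was searched as TGANTCA, which reads the same on both strands. The TATA box was searched as TATAAA and the GC box, a site of Sp1-like factors, as GGGCGG. The motif of GATA factors was searched as AGATAA and that of forkhead factors, which include Foxa1, as TGTTTNC. The motif of grainyhead factors, which act in many epithelia, was searched as AACCNGTT. The windows are shown so that Sprr1a and the uroplakins can be compared.
Sprr1a, chr2:180752576-180752875, minus strand: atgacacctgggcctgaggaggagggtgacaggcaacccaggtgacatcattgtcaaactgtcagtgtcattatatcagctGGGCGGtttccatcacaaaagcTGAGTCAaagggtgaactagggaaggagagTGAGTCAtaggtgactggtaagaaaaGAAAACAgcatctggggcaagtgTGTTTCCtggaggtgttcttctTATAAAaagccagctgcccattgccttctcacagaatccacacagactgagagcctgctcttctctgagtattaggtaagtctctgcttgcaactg
Upk1b, chr11:75459131-75459430, plus strand: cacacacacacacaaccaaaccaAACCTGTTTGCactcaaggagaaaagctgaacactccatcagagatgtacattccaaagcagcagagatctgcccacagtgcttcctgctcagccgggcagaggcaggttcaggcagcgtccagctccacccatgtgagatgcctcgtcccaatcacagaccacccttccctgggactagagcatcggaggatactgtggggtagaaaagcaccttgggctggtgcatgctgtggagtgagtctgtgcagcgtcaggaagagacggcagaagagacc
Upk3a, chr7:118014540-118014839, plus strand: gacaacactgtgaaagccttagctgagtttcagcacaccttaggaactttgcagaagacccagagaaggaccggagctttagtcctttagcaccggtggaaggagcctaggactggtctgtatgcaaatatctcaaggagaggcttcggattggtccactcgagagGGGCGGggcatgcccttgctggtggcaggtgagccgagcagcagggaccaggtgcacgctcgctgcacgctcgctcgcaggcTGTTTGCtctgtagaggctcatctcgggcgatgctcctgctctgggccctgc
Upk1a, chr1:94997531-94997830, minus strand: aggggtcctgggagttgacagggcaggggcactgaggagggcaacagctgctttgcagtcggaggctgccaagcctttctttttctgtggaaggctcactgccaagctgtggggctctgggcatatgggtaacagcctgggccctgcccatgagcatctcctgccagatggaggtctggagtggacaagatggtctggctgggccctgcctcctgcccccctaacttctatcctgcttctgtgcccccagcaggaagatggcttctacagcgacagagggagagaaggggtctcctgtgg

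The Sprr1a window held 2 AP-1 matches, which began 147 and 117 bases before the start, a TATA box match 46 bases before it, 1 GC box and 2 forkhead matches. AP-1 is the factor formed by Fos and Jun proteins. Of 33469 promoter windows of the same length, 7.33% held at least 1 AP-1 match and 0.415% held 2 or more, and 14.2% held a TATA box match. The Upk1b window had a grainyhead match 227 bases before the start, overlapping a forkhead match that began 223 bases before it. Grainyhead matches occurred in 2.10% of windows and forkhead matches in 21.1%. The Upk3a window had 1 GC box match, found in 33.1% of windows, and 1 forkhead match, and the Upk1a window had no match to any of the 6 motifs. No AP-1 or TATA box match was shared between Sprr1a and these 3 uroplakins. A match is a description of letters and does not show that a factor binds there. Whether the annotated starts on which the windows rest, that of Upk1a among them, are those used in kidney was not tested.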

How the data were processed

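Kidney RNA was measured on Affymetrix Rat Genome 230 2.0 arrays, 3 per strain, and the groups came from the sample titles. The deposited values are intensities on a linear scale, 1 MAS5 signal per probe set, per the submitters' processing notes; its version, its target value and its detection calls are not given in the sources used here. Trimmed by 2% at each end, the mean signal was 150 to 150.1 on every array, so the arrays share 1 scale and a change in all transcripts together would be hidden. Pools held different rats, so the spread between arrays is biological and technical. The number of arrays limits the precision (median SE of a log2 fold change 0.10).

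Symbols came from the platform annotation, updated by gene ID to GRCr8: of 31042 probe sets without controls, 20826 had 1 symbol, 436 several and 9780 none. After 12417 probe sets below the 40th percentile were left out, log2(signal + 16) of 18625 was fitted with limma 3.58.1 in R 4.3.3 (eBayes with trend, 2-sided p, Benjamini-Hochberg at 0.05) and checked on simulated data. A gene was represented by its brightest probe set. With 3 against 3 arrays an exact permutation test cannot go below 0.1, so none was run.

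Members and lists were chosen with earlier results of these data known. Named were all members, the 3 genes of smallest p in each list where a result turned on them, the 5 nearest profiles, and a few list genes chosen after their values were seen (Alb, Star, Gata3, Pparg, Upk3bl1, Krt8, Krt18, Fxyd3, Ptgs1, Pck1, Sprr1b, Sprr2d, Sprr3). Of the lists, 3 urothelial symbols also stand in another list. Of 6 proximal tubule genes 5 were lower (median -0.047), and all 8 liver and 5 adrenal genes tested were higher (medians 1.28 and 1.65), mainly from 1 array each. Of all genes tested, 52.6% were lower. Alternatives were other pseudocounts, filters and normalizations, arrays left out, a replicate block, eBayes without trend and the mean of all probe sets.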

Additional observations from a re-analysis of the deposited data

How the results depend on the processing

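Over the alternatives, the log2 fold changes of Upk1a, Upk1b, Upk3a, Krt5, Krt19 and Sprr1a stayed negative in 16 of 16 settings each and that of Upk2 positive in 16, while Krt20 kept its sign in 12 and Krt7 in 11. The filters, the replicate block, eBayes without trend and the mean of all probe sets could not change these fold changes. Each gene has 1 probe set and each replicate number stands once in each strain, so these settings add nothing to the counts. The genes were also chosen on this contrast, so a kept sign is no independent support. The number of measured genes with a lower congenic mean was 6 to 8, and the median over the 9 genes ran from -0.31 to -0.18 with an array left out, -0.31 with pseudocount 1, -0.13 with pseudocount 64 and -0.099 with congenic array 2 alone, a comparison chosen after seeing the data. With that array alone Upk1a, Upk3a and Sprr1a moved to -0.099, -0.009 and -0.43, and Sprr1a was at -0.47 with pseudocount 64. The number of probe sets called by limma was 0 in every setting but 1: it was 0 to 1 with an array left out, the 1 call coming without congenic replicate 2, and 0 urothelial or cornified envelope genes were called in any. An unadjusted p under 0.05 was found for 1232 probe sets with all arrays and 789 with congenic array 2 alone. Other urothelial genes lower in congenic kidneys numbered 14 of 26 as reported. They numbered 23 of 38 with no filter and 8 of 15 with the filter at the 60th percentile. With an array left out, 13 to 18 of the 26 were lower. The median over the 26 ran from -0.11 without congenic replicate 1 to 0.014 without congenic replicate 3. Cornified envelope genes lower numbered 3 of 6 as reported, 8 of 21 with no filter and 5 of 6 without S replicate 2. The filters change the number of genes tested. Among other named genes, Slc22a6 ran from -0.19 to 0.046 with an array left out, positive without S replicate 1, and Hsd3b1 (-0.035) and Cyp11b1 (-0.034) turned negative with congenic array 2 alone, which lacks the array their signal came from. The cause of the remaining changes was not tested. With the replicate number as a block the median over the 9 genes was -0.21, 0 probe sets were called and 1293 had an unadjusted p under 0.05. Same-numbered arrays had correlations of deviations from the strain means of 0.0368, 0.0136 and 0.0209. Congenic array 2 and S array 3, which differ in number, had 0.0378. No signal shared by number was thus seen, but such correlations cannot show whether same-numbered pools held cage mates.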
